A study of Mus musculus with 6 samples.

Results

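The piRNA pathway core genes described here are the 10 genes Piwil2, Piwil4, Ddx4, Mael, Mov10l1, Asz1, Pld6, Gtsf1, Fkbp6 and Ddx25. Their probe sets were all those whose platform annotation gave exactly one of these symbols. This rule found 12 of the 45101 probe sets on the array, for 9 of the 10 genes. Fkbp6, which encodes a co-chaperone of PIWI proteins, had no such probe set, so it is named only and has no value. Expression was measured on 6 Affymetrix arrays of ovaries from mouse embryos at E15.5, of which 3 carried the genotype dmrt1 knockout and 3 were wild type (WT). The study's design text calls the removal of Dmrt1 conditional, but the labels give neither the Cre driver, the strain nor any treatment, and no allele is stated to be shared by both groups. Whether the 3 replicates of a group came from separate animals is not stated. Every p-value is set against the scatter of these arrays, an unknown part of which may be technical. Xist, described below, averaged log2 1.81 on knockout replicate 1 and 9.845 and 9.748 on knockouts 2 and 3. Knockout replicate 1 was therefore not a repeat array of the same RNA as the other knockout replicates.

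PIWI-interacting RNAs (piRNAs) are small RNAs of germ cells that guide PIWI proteins to transposon transcripts and, in the nucleus, to transposon loci. Long precursor transcripts are handed to the mitochondrial surface, cut there, and loaded onto PIWI proteins in a perinuclear granule called nuage. In mouse, the pathway is best known from the fetal testis, where nuclear PIWIL4 (MIWI2) directs DNA methylation of transposons in prospermatogonia. Fetal ovarian germ cells at this age are in meiotic prophase. DMRT1 is a DM domain transcription factor of germ cells and Sertoli cells.

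The stretch before the start site was examined because the members were measured together after removal of a transcription factor. RefSeq promoter windows of build GRCm38.p6, cut here to the 250 bases before each start, were found for 9 of the 10 genes, with 12 windows in all. Piwil2 had none. The sequences of Piwil4 and Pld6 are shown because those genes passed the test below, and those of Ddx4, Mael and Mov10l1 because each holds CACGTG, the E-box bound by MAX and related factors. They run 5′ to 3′ on the gene's own strand, and capitals mark every match to 3 searched motifs. The E-box reads the same on both strands. The second motif, searched on both strands, was the E2F-type sequence GCGGGAA. The third was the core of the DMRT1 recognition sequence, ACANTGT, which also reads the same on both strands.
Piwil4, chr9:14740673-14740922, minus strand: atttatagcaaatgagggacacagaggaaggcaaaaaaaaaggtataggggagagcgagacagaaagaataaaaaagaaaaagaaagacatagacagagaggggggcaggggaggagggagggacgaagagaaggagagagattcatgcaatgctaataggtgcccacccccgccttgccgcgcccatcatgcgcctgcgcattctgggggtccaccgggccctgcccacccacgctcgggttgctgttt
Pld6, chr11:59787658-59787907, minus strand: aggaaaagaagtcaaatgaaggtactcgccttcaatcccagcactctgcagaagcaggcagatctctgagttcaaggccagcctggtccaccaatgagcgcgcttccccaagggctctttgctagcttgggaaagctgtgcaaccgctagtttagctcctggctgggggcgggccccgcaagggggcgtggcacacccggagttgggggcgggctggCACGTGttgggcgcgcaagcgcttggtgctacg
Ddx4, chr13:112652311-112652560, minus strand: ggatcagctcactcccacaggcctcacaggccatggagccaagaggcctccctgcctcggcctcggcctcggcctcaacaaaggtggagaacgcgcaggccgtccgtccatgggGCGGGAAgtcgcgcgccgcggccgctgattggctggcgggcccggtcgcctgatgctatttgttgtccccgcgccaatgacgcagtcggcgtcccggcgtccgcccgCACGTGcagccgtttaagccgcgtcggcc
Mael, chr1:166238745-166238994, minus strand: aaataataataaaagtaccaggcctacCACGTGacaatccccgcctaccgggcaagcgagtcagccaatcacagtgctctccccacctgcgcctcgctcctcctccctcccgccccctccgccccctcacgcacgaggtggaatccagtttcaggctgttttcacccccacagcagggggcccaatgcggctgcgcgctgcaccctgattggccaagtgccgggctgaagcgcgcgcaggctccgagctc
Mov10l1, chr15:88982744-88982993, plus strand: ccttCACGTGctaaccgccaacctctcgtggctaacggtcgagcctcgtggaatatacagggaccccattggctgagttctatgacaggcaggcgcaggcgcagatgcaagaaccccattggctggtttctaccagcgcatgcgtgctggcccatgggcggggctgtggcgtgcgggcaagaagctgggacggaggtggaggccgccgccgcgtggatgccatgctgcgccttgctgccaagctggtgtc

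ACANTGT was in 0 of the 12 windows of the members, against 6.46% of all 32841 windows in the table. This says only that these letters are not in these windows. CACGTG was in 6 of the 12 windows, from 5 genes (Ddx4, Fkbp6, Mael, Mov10l1 and Pld6), against 6.02% of all windows. In Pld6 it began 33 bases before the start, in Ddx4 29, in Mael 223 and in Mov10l1 246. GCGGGAA was in 1 window, that of Ddx4, against 3.82% of all windows. The members' windows were richer in CpG than most, since 11 of the 12 lay above the median of all windows, which was 6 CpG. The Ddx25 window had 34 CpG and the Ddx4 window 31, while the Gtsf1 window had 7. Piwil4 had 10 CpG in the window shown and 0 in the window of its other annotated start. Among the 12416 windows with at least 10 CpG, 9.37% held CACGTG, and of the members' 10 such windows 6 did. A match is a description of the sequence and not a binding site, and windows of 1 gene can overlap. The 2 windows of Fkbp6 do overlap and hold the same 2 CACGTG matches, so these matches enter both counts of 6 through 2 windows.

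All values below are log2 intensities, on which a difference of 1 is a doubling, and differences are knockout minus wild type with limma's standard error (SE) from 3 arrays per group. Knockouts 1 to 3 and wild types 1 to 3 stand for the replicates of each group. A probe set was tested when it read at least log2 4 on at least 3 of the 6 arrays, which held for 22040 probe sets of 11897 genes and for 10 of the members' 12 probe sets, covering 9 genes. The 3 knockout and 3 wild-type arrays had log2 values correlated at 0.994 to 0.996 inside a group and 0.988 to 0.991 across groups. The Dmrt1 probe set was under the test level on every array, at 3.10, 2.58 and 2.90 in knockouts 1, 2 and 3 and at 3.08, 3.09 and 3.70 in wild types 1, 2 and 3. Its groups overlapped, and where it lies in the gene was not given, so it does not check the labels. Xist, the RNA of the inactive X chromosome, averaged log2 1.81, 9.845 and 9.748 on knockouts 1, 2 and 3. It averaged 10.89, 10.91 and 10.68 on wild types 1, 2 and 3, so knockouts 2 and 3 also lay below all wild types. The median of the Y-linked Eif2s3y, Kdm5d and Uty probe sets was 1.29 to 1.49 on all 6 arrays. Differences of the members and medians of the lists are therefore also given without knockout replicate 1. Germ cell markers were present (14 of 16 tested), as were all 10 pregranulosa markers. Of those not tested, the germ cell marker Dnd1 and the Sertoli marker Amh were under the level on every array. The germ cell marker Kit reached it on knockout replicate 1 only (4.53), and the Sertoli marker Dhh on knockout replicate 3 only (4.23).

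Piwil4 and Pld6 rose in the knockout ovaries, 2 of the 9 member genes tested, and 0 fell. Over all genes tested, 1.79% had a probe set that rose and 4.65% had one that fell (limma, adjusted p of 0.05 or less over all probe sets). Piwil4 showed a 6.58-fold rise, and Pld6 a 1.90-fold rise. The other 7 genes did not pass, with differences between -0.13 and 0.86.

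**Figure D1:**
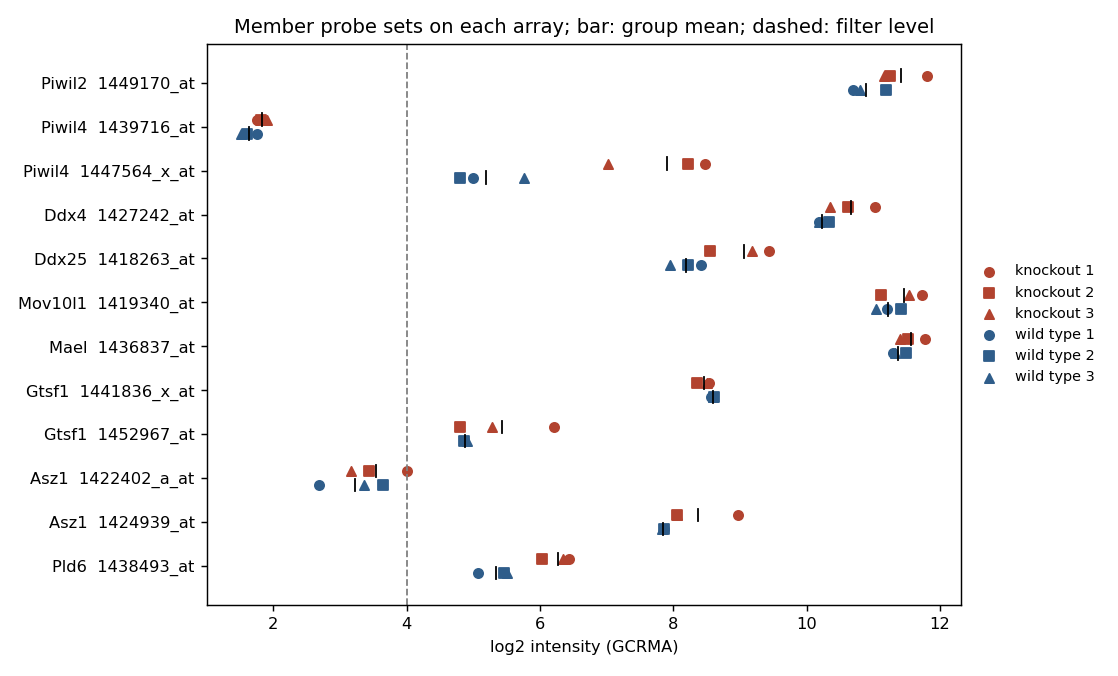
Log2 intensity of each of the 12 member probe sets (rows) on each of the 6 arrays (knockout red, wild type blue, marker shape for replicate 1 to 3). Black bars are group means and the dashed line is the test level of log2 4. The knockout and wild-type points of Piwil4 1447564_x_at lie apart, from 7.02 up and from 5.76 down, while most other rows lie close together.

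Among the PIWI proteins, Piwil4 (MIWI2) is the nuclear one. Its probe set 1447564_x_at read 8.47, 8.21 and 7.02 in knockouts 1, 2 and 3, and 4.99, 4.80 and 5.76 in wild types 1, 2 and 3. Every knockout array lay above every wild-type array, and the lowest knockout array, replicate 3, was 1.26 log2 units above the highest wild-type array, replicate 3. The mean was 7.90 ± 0.77 in knockout and 5.18 ± 0.51 in wild type (SD, n = 3 each), a difference of 2.72 ± 0.37 (SE, limma adjusted p = 0.00174). Its 95% interval was 1.89 to 3.54. Leaving out any 1 array gave differences from 2.43 (without knockout replicate 1) to 3.16 (without knockout replicate 3), with limma adjusted p from 0.000526 to 0.0133.

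The other Piwil4 probe set, 1439716_at, did not show this signal. It read 1.75, 1.82 and 1.90 in knockouts 1, 2 and 3 and 1.76, 1.60 and 1.52 in wild types 1, 2 and 3. All 6 arrays lay under the test level, the groups overlapped, and no test was made. On each array the brighter probe set was compared with the dimmer one, and this distance was 6.72, 6.40 and 5.12 on the knockout arrays and 3.23, 3.20 and 4.24 on the wild-type arrays. The distances differed by 2.52 between genotypes. Because the dimmer probe set lay near the floor on every array, this distance mostly restates the brighter one's values, and an exact permutation test of 3 against 3 arrays (2-sided p = 0.1, the smallest it can give) adds nothing to it. The rise of Piwil4 therefore rests on 1 probe set, whose suffix _x_at marks probes that can match other transcripts as well. Whether the dim probe set could detect Piwil4 transcripts in these ovaries was not tested.

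Piwil2 (MILI), the cytoplasmic PIWI protein that amplifies piRNAs in fetal germ cells, did not pass. It read 11.80, 11.26 and 11.16 in knockouts 1, 2 and 3, and 10.69, 11.19 and 10.81 in wild types 1, 2 and 3. The groups overlapped narrowly, since knockout replicate 3 lay just under wild-type replicate 2. The difference was 0.51 ± 0.18 (SE, limma adjusted p = 0.136) with a 95% interval of 0.11 to 0.91, and without knockout replicate 1 it was 0.31 (limma adjusted p = 0.323). Piwil1, the PIWI protein of later male germ cells and not among the members, was under the test level.

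**Figure D2:**
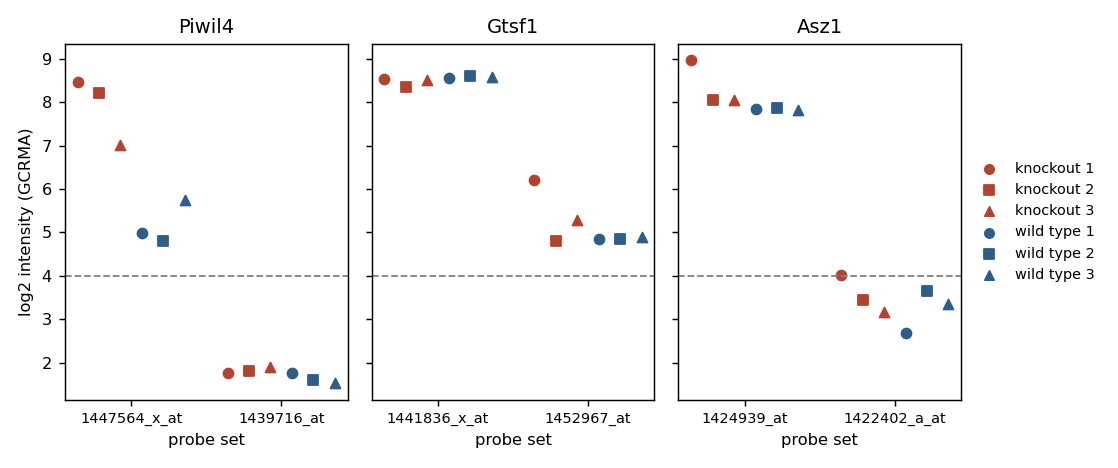
Log2 intensity (vertical axis) on the 6 arrays for the 3 member genes with 2 probe sets each, Piwil4, Gtsf1 and Asz1, with the brighter probe set on the left of each panel. Points are arrays in the order knockout 1 to 3 and wild type 1 to 3, and the dashed line is the test level of log2 4. Piwil4 separates by genotype in its brighter probe set only, where the knockout arrays read 7.02 to 8.47.

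Pld6 (mitoPLD, Zucchini), the mitochondrial surface enzyme tied to cutting of piRNA precursors, was the second member that rose. It read 6.43, 6.03 and 6.34 in knockouts 1, 2 and 3 and 5.07, 5.46 and 5.50 in wild types 1, 2 and 3. All knockout arrays lay above all wild-type arrays, and each group was tight, at 6.27 ± 0.21 and 5.34 ± 0.24 (SD, n = 3 each). The difference was 0.93 ± 0.20 (SE, limma adjusted p = 0.0194). The call ended without knockout replicate 1 (0.84, limma adjusted p = 0.0625), wild-type replicate 1 (0.79, 0.0833) or wild-type replicate 2 (0.98, 0.0523), with the difference little changed.

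Asz1 (GASZ), a scaffold on the mitochondrial surface that holds nuage together, differed mainly through 1 array. Its probe set 1424939_at read 8.97 on knockout replicate 1, 8.06 on both other knockout replicates, and 7.85, 7.86 and 7.83 in wild types 1, 2 and 3. The groups did not overlap, the wild-type arrays having an SD of 0.02, but the difference of 0.52 ± 0.24 (SE, limma adjusted p = 0.251) did not pass. Without knockout replicate 1 it was 0.21 (limma adjusted p = 0.534). The other Asz1 probe set, 1422402_a_at, reached the test level on 1 array only, knockout replicate 1 (4.01), and was not tested. The distance between the 2 probe sets differed by 0.21 between genotypes (exact permutation test, 2-sided, p = 0.6).

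The RNA helicases did not pass. Ddx25, a DEAD-box helicase known mainly from the adult testis, came closest. It read 9.44, 8.55 and 9.18 in knockouts 1, 2 and 3, above all of the wild-type values of 8.41, 8.23 and 7.95. The difference was 0.86 ± 0.23 (SE, limma adjusted p = 0.0517), and without knockout replicate 1 it was 0.67 (limma adjusted p = 0.147). It passed under 6 of the 16 alternatives whose p-values are used, which included array weights (0.0184) and leaving out knockout replicate 2 (0.00862).

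Ddx4 (VASA), the helicase that marks germ cells and their nuage, read 11.03, 10.61 and 10.35 in knockouts 1, 2 and 3, and 10.18, 10.33 and 10.19 in wild types 1, 2 and 3. The groups did not overlap, though knockout replicate 3 was only 0.02 above wild-type replicate 2. The difference was 0.43 ± 0.16 (SE, limma adjusted p = 0.161), and 0.25 without knockout replicate 1 (limma adjusted p = 0.374). It passed without knockout replicate 3 (0.59, limma adjusted p = 0.046).

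Mov10l1, the helicase that feeds precursor transcripts into piRNA production, overlapped between groups. It read 11.73, 11.12 and 11.53 in knockouts 1, 2 and 3, and 11.20, 11.42 and 11.04 in wild types 1, 2 and 3. Knockout replicate 2 lay below wild-type replicates 1 and 2. The difference was 0.24 ± 0.16 (SE, limma adjusted p = 0.439), with a 95% interval of -0.11 to 0.59, and 0.10 without knockout replicate 1 (limma adjusted p = 0.777).

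Mael (maelstrom), a nuage protein needed for transposon silencing, read 11.77, 11.51 and 11.40 in knockouts 1, 2 and 3, and 11.29, 11.49 and 11.32 in wild types 1, 2 and 3. The groups overlapped, knockout replicate 3 falling below wild-type replicate 2. The difference was 0.19 ± 0.11 (SE, limma adjusted p = 0.378), and its 95% interval ran from -0.06 to 0.45. Without knockout replicate 1 it was 0.09 (limma adjusted p = 0.718).

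Gtsf1, a small zinc finger partner of PIWI proteins, gave opposite signs in its probe sets. Probe set 1452967_at read 6.21, 4.80 and 5.29 in knockouts 1, 2 and 3 and 4.86, 4.85 and 4.90 in wild types 1, 2 and 3. Knockout replicate 1 stood high there, while knockout replicate 2 lay below all wild-type arrays, and the difference of 0.56 ± 0.31 (SE) did not pass (limma adjusted p = 0.342). Without knockout replicate 1 it was 0.17 (limma adjusted p = 0.713). Probe set 1441836_x_at read 8.53, 8.36 and 8.51 in knockouts 1, 2 and 3, all below the wild-type values of 8.57, 8.61 and 8.59. Its difference was small, at -0.13 ± 0.13 (limma adjusted p = 0.652), or -0.16 without knockout replicate 1 (limma adjusted p = 0.638), and its sign turned with median centring of the arrays (0.01). The distance between these probe sets was 2.32, 3.56 and 3.22 in knockouts 1, 2 and 3 and 3.71, 3.76 and 3.69 in wild types 1, 2 and 3. It differed by -0.69 between genotypes, much of it through knockout replicate 1 (exact permutation test, 2-sided, p = 0.1, the smallest possible).

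**Figure D3:**
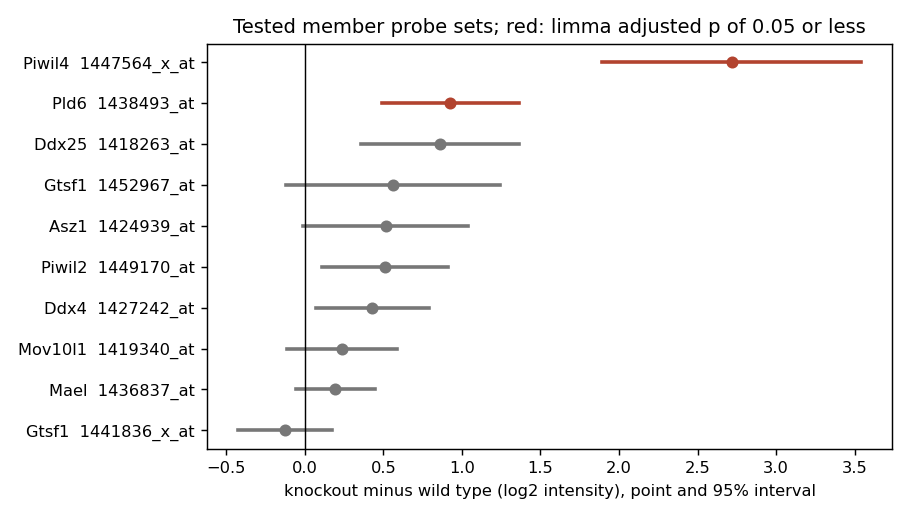
Difference in mean log2 intensity, knockout minus wild type, for the 10 tested member probe sets, with the 95% interval from limma (n = 3 arrays per group). Red marks an adjusted p of 0.05 or less, which only Piwil4 1447564_x_at (2.72) and Pld6 (0.93) reached, while the grey intervals of Ddx25, Piwil2 and Ddx4 also lie above 0.

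Read as a group, 9 of the members' 10 tested probe sets had a positive difference, with a median of 0.51. Over all probe sets tested, 49.6% were positive and the median was -0.002. The knockout arrays lay wholly above the wild-type arrays for 5 member probe sets (Piwil4, Pld6, Ddx25, Asz1 and Ddx4), against 11.2% of all probe sets tested, and wholly below for 1 (Gtsf1 1441836_x_at), against 15.2%. Of the 10 probe sets, 2 rose and 0 fell, against 1.46% and 5.15% of all tested, and 5 had an unadjusted p under 0.05, against 20.7% of all tested.

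Knockout replicate 1, the array without Xist signal, carried much of this shift. It was the highest of the 6 arrays for 9 of the 10 member probe sets, against 16.9% of all probe sets tested. Without it the median of the members was 0.23, and 9 of the 10 differences stayed positive. Knockout replicates 2 and 3 both lay above all wild-type arrays for 5 member probe sets, against 15.6% of all tested. Piwil4 was then the only member that passed (2.43, limma adjusted p = 0.00671).

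Germ cell markers outside the pathway had a median difference near 0. Over 14 tested genes, mostly of the synaptonemal complex and meiotic chromosome axis, the median difference was 0.02, or 0.03 without knockout replicate 1, and 8 were positive. Their summed intensity was 25202 to 30240 on the knockout arrays and 25277 to 31774 on the wild-type arrays, so the groups overlapped. That of the 9 member genes (brightest probe set each) ran from 10489 to 14553 on knockout arrays and from 8578 to 10242 on wild-type arrays. Sycp3, of the synaptonemal complex, differed by 0.005 ± 0.10 (SE, limma adjusted p = 0.987). Dazl, an RNA-binding protein of germ cells, was the 1 gene of 14 called. Its dimmer probe set rose by 1.34 ± 0.34 (limma adjusted p = 0.0456) and its brighter one differed by 0.48 ± 0.19 (0.183), and the call ended without knockout replicate 1 or any one wild-type array, under the stricter filter, and with eBayes without the trend. Without wild-type replicate 3 the 1 call was Sycp2, a synaptonemal complex protein named here after its value was seen, which fell by 0.53 (limma adjusted p = 0.0333), against -0.41 on all arrays (0.0811). With every array centred on the 14 markers, Piwil4 differed by 2.66 and the members' median was 0.45. In these bulk arrays, more germ cells and more RNA per germ cell cannot be told apart.

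Lists of stroma, vessel, blood and Sertoli markers had negative medians, and the pregranulosa list had a positive one. Medians without knockout replicate 1 follow each median in the next sentences. The 8 macrophage genes all had a negative difference (median -0.39, then -0.17), with a summed intensity of 5089 to 8186 on knockout arrays against 7998 to 9364 on wild-type arrays, and 2 genes fell (Ptprc and Mrc1). Of 8 stroma genes 3 fell (Col1a1, Dcn and Nr2f2), with a median of -0.23, then -0.20, and sums of 31935 to 33707 against 36039 to 39719. Each of these 3 was called through a dimmer probe set. The brightest probe set of each, used for the median and sums, did not pass (limma adjusted p = 0.0806, 0.0716 and 0.736). Of 6 endothelial genes 2 fell (Tek and Flt1, with Cdh5 and Pecam1 under the test level, median -0.14, then -0.14, sums of 1428 to 1782 against 1784 to 2064), and of 4 erythroid genes 1 fell (Slc4a1, median -0.63, then -0.73, sums of 826 to 1430 against 1845 to 2203). Of 10 pregranulosa genes 0 passed (median 0.24, then 0.16), with 8 positive and sums of 18012 to 18995 on knockout arrays, all above the 16260 to 16862 on wild-type arrays. Of 3 Sertoli genes 0 passed (median -0.43, then -0.21, sums of 1494 to 1978 against 1838 to 2000). The -0.43 is the value of Sox9, whose probe set lay near the test level (means of 3.82 in knockout and 4.26 in wild type). It reached that level on 3 wild-type arrays and 1 knockout array, so this median carries little meaning. Cldn11 was slightly positive (0.05). The part of these lists in the members' differences was not tested.

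**Figure D4:**
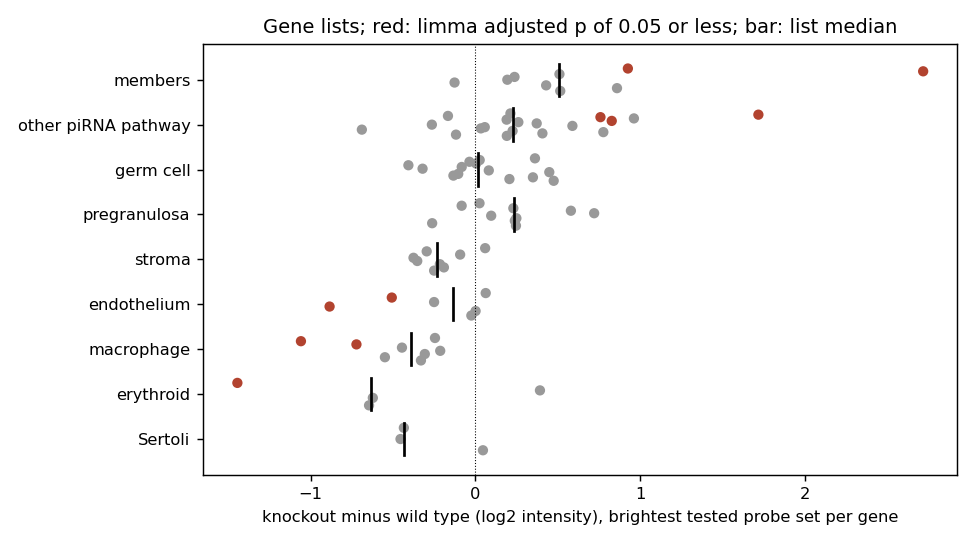
Difference in mean log2 intensity, knockout minus wild type, for each tested gene of the 9 gene lists (brightest probe set per gene, red for an adjusted p of 0.05 or less, black bar for the list's median, vertical offsets only for legibility). The median is 0.51 for the members, 0.23 for the other piRNA pathway genes and 0.02 for the germ cell markers, while the median lies below 0 for stroma, endothelium, macrophage, erythroid and Sertoli genes. Genes called only through a dimmer probe set appear grey.

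In the rest of the pathway, 26 further genes were listed, of which 24 had a probe set and 19 were tested. Of these, 3 rose (Tex19.1, Tdrd12 and Tdrkh), 1 fell (Dnmt3a) and 15 did not pass. Over all genes tested, 1.79% had a probe set that rose and 4.65% had one that fell. Of the 19 brightest probe sets 15 were positive, against 49.6% of all probe sets tested. Their median was 0.23, or 0.15 without knockout replicate 1. Piwil1, Tdrd1, Tdrd5, Henmt1 and Dnmt3l were under the test level, and Tdrd6 and Spocd1 had no probe set.

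Tex19.1, a germline gene that represses transposons, read 7.52, 6.38 and 5.86 in knockouts 1, 2 and 3 against 4.61, 5.29 and 4.70 in wild types 1, 2 and 3. The groups did not overlap and the rise was 1.72 ± 0.37 (SE, limma adjusted p = 0.0216), or 1.25 without knockout replicate 1 (limma adjusted p = 0.0271). Its call ended without wild-type replicate 1 (0.0951) or 3 (0.0694).

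Tdrkh, a mitochondrial tudor protein that helps trim piRNA ends, read 8.04, 7.56 and 7.92 in knockouts 1, 2 and 3, and 7.27, 7.14 and 6.83 in wild types 1, 2 and 3. The groups did not overlap, and the rise was 0.76 ± 0.19 (SE, limma adjusted p = 0.0407). Tdrd12, a tudor protein that works with PIWI proteins, rose by 0.83 ± 0.21 (limma adjusted p = 0.0404). Both calls ended on leaving out knockout replicate 1 (limma adjusted p = 0.119 and 0.112), knockout replicate 3 (0.0865 and 0.0903), wild-type replicate 2 (0.111 and 0.156) or wild-type replicate 3 (0.171 and 0.151), and that of Tdrkh without wild-type replicate 1 (0.0702). Both also ended with the replicate block, a model term for replicate number (limma adjusted p = 0.0793 and 0.0553). Replicate numbers do not pair the samples, as described below. The Tdrd12 call also ended under the stricter filter of log2 5 (limma adjusted p = 0.0507).

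Dnmt3a, a DNA methyltransferase that acts in germ cells and widely elsewhere, had 5 tested probe sets, all with a negative difference. Only 1460324_at fell (by 0.82 ± 0.20, SE, limma adjusted p = 0.042), at 9.95, 9.66 and 9.10 in knockouts 1, 2 and 3 and 10.15, 10.57 and 10.45 in wild types 1, 2 and 3. Another, 1423066_at, was just over the threshold (-0.54 ± 0.14, limma adjusted p = 0.0501). The brightest, 1423064_at, differed by only -0.12 ± 0.08 (limma adjusted p = 0.463), so the call came through a dimmer probe set. The 1460324_at call ended without any one array other than knockout replicate 1 (limma adjusted p = 0.0183 without that array). It also ended with the stricter filter (0.0501), eBayes without the trend (0.0797), the replicate block (0.0592) or median centring (0.0701).

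The next smallest p-values in this list belonged to Tdrd9, a helicase with a tudor domain (0.96 ± 0.26, SE, limma adjusted p = 0.0598), and Gpat2, a mitochondrial acyltransferase-like protein of the pathway (0.78 ± 0.22, 0.0726). Without knockout replicate 1 they differed by 0.88 and 0.75 (limma adjusted p = 0.15 and 0.165). For both genes all knockout arrays lay above all wild-type arrays, as they did for 11.2% of all probe sets tested. Tdrd9 was dim, at 5.10, 4.56 and 5.13 in knockouts 1, 2 and 3 and 4.16, 3.43 and 4.32 in wild types 1, 2 and 3. Its wild-type values thus lay around the test level of log2 4. Hsp90aa1, the chaperone that helps load piRNAs (0.26 ± 0.10, limma adjusted p = 0.17), and Rnf17, a tudor protein of germ cells (0.37 ± 0.18, 0.266), followed.

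The members did not share 1 order of the knockout arrays. Piwil4, Ddx4, Piwil2 and Mael were highest on replicate 1 and lowest on replicate 3, whereas Pld6, Ddx25, Mov10l1 and Gtsf1 had their lowest value on replicate 2. Over the 6 arrays, Pearson's r with Piwil4 1447564_x_at was 0.88 for Pld6, 0.83 for Ddx4 and 0.37 for Mov10l1, and after removing group means it was 0.09, 0.64 and -0.29. Among 11897 genes, those most like Piwil4 over the 6 arrays were Aig1, Cdca7l, Ctu2, Trip13 and Ncam2 (r of 0.987 to 0.993), and of these Ncam2 rose (1.76 ± 0.30, limma adjusted p = 0.00568). After removing group means they were Ncoa2, Mtmr12, Glul, Mthfd1l and Kdm1b (r of 0.992 to 0.995), none of which passed (limma adjusted p from 0.61 to 0.836). These are descriptions over 6 points that share their arrays.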

How the data were processed

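Per the labels' protocols, total RNA of embryonic ovaries was biotin-labelled and hybridised to Affymetrix arrays. The authors deposited linear intensities, 1 per probe set and array, made with GCRMA, per the submitters' processing notes, whose version and settings are not given in the sources used here. Dim probe sets pile up near a floor after this step, so differences under log2 4 carry little meaning, and such values have no detection calls. The number of arrays limits the precision. Intensities were taken to log2, and 64 control probe sets were left out. Probe sets at log2 4 or more (intensity 16) on at least 3 of 6 arrays were tested with limma 3.58.1 in R 4.3.3 (lmFit, eBayes with intensity trend, genotype as the only term, Benjamini-Hochberg over 22040 probe sets, threshold 0.05). A gene counts as called when any tested probe set passes. List medians use each gene's brightest tested probe set.

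Symbols came from the platform annotation (34945 probe sets with 1 gene, 932 with several, 9160 unnamed), of which 34741 matched RefSeq GRCm38.p6 by gene identifier. Promoter windows are RefSeq's. On simulated arrays with 22040 probe sets, 31 of 50 probe sets moved by 1 log2 unit were found, and 4 of 50 moved by 0.5. The replicate numbers do not pair the samples: deviations of same-numbered arrays correlated at -0.247 to -0.165. Deviations correlated at 0.328 for knockout 1 with wild type 2, 0.336 for knockout 2 with wild type 3 and 0.238 for knockout 3 with wild type 1. No model paired the arrays in this way. Identical arrays numbered 0. The members and lists were chosen with earlier results of these data known. Genes named are all members, the 8 other pathway genes with the smallest p, Dazl, Sycp3, those called in the marker lists, and the 5 most like Piwil4 by each measure. Alternatives covered the filter, the variance model, array weights, the replicate block, normalization, the probe sets used, and each array left out.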

Additional observations from a re-analysis of the deposited data

How the results depend on the processing

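Piwil4 kept its direction under all alternatives that hold its probe set and its call under the 15 of them whose p-values are used, and the members' other differences kept their direction under theirs, except Gtsf1 1441836_x_at, whose sign turned with median centring (0.0106) and with averaged probe sets (0.218). Sycp3, near 0, turned sign with array weights (-0.0209), germ cell scaling (-0.0576), and without knockout replicate 2, wild-type replicate 1 or wild-type replicate 3, with values of -0.0641 to 0.0580 over the arrays left out in turn. Leaving out each array in turn gave 1 to 3 called member genes and 1 to 3 called probe sets, 0 to 5 other pathway genes, 0 to 1 germ cell markers (Sycp2, lower, without wild-type replicate 3), a member median of 0.23 to 0.63 and a Piwil4 probe set contrast of 2.20 to 3.003. The stricter filter (log2 5) gave 2 other pathway genes and 0 germ cell markers, and eBayes without the trend gave 0 germ cell markers. With the replicate block, 2 member genes (Piwil4 and Pld6) and 2 other pathway genes (Tex19.1 and Tdrd9) were called, with 836 and 207 probe sets lower and higher overall (1134 and 321 without it). Calls over all probe sets were 1325 higher and 1957 lower with no filter and 203 and 753 with the stricter one. Median centring moved the median of all tested probe sets to 0.14 and the split to 871 higher and 809 lower, and gave 3 member genes. Germ cell scaling adds 1 offset per array to every probe set, as median centring does, but takes it from only 14 genes. Its differences are given and its p-values are not used. Which causes lie behind these changes was not tested.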
